A study of Homo sapiens with 13 samples.

Results

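The replication-dependent histone genes were followed in A549 cells, a line from a human lung adenocarcinoma. Members were the table entries named as HIST1 to HIST4 genes in the older nomenclature, or as H1-1 to H1-6, H2AC, H2BC, H3C and H4C genes in the current one, with pseudogenes left out. They came to 70 genes (6 of H1, 17 of H2A, 18 of H2B, 14 of H3 and 15 of H4) among 59653, 39735 and 17976 gene symbols in the 3 deposited tables. Of these, 55 members were listed in every table. By the GENCODE 29 annotation of GRCh38, 55 members lie on chromosome 6, 14 on chromosome 1 and 1 on chromosome 12. Current symbols are used throughout.

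These genes encode the core histones that package newly made DNA and the linker histone H1 that binds between nucleosomes. Their transcription is tied to S phase through NPAT, and most of their messages end in a conserved stem-loop in place of a poly(A) tail. The stem-loop is bound by SLBP, which directs 3′ end cutting together with the U7 particle. Poly(A)-selected RNA therefore holds little of these messages, apart from copies that are cut and tailed at a downstream poly(A) signal, as is known for some histone genes in cells that leave the cycle.

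Poly(A) RNA was sequenced from 13 A549 derivatives, 1 library for each group, grown in DMEM/F12 with serum. In the CRISPRi pair, the library CRISPRi_PRR11+SKA2 promoter-sgRNA#1 carried a guide against the shared bidirectional promoter of PRR11 and SKA2, and CRISPRi_Mock sgRNA was its control. The lentiviral vector Lenti-pCDH-CMV, which drives its insert from the CMV promoter, carried PRR11 (LV-PRR11), SKA2 (LV-SKA2) or both (LV-P+S), with LV-vector-PS as the empty control. It carried miR301a (LV-miR301a), miR454 (LV-miR454) or both (LV-3+4) against LV-vector-34, and lines with pre-miR301a or pre-miR454 knocked out by CRISPRd (CRISPRd_miR301a-#2, CRISPRd_miR454-#1) had CRISPRd_Control. Whether a line is 1 clone or a pool is not stated in the labels. The comparisons address what this transcription unit does in lung cancer cells.

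The libraries held 18672570 to 21717807 counts assigned to named genes. In the CRISPRi pair, PRR11 had 2029 counts in the control and 14 in the treated library, and SKA2 had 1594 and 5. The overexpression labels were not borne out by gene counts for SKA2, which stood at 84.4% of its vector level where the label is LV-SKA2, and at 88.7% where it is LV-P+S. For PRR11 the values were 109% under the label LV-PRR11 and 110% under LV-P+S, beside 103% under LV-SKA2. The counting intervals of LV-PRR11 (103% to 116%) and LV-SKA2 (97.2% to 110%) overlap, so gene counts do not clearly bear out the PRR11 labels either. MIR454 had 468 counts under the label LV-miR454, 28 under LV-miR301a and 0 under LV-3+4. MIR301A had 29 counts under LV-miR301a, 34 under LV-3+4 and 0 under LV-miR454. The library labelled LV-miR301a thus held counts of both precursors, and the library labelled LV-3+4 held counts of MIR301A alone. The names LV-PRR11, LV-SKA2, LV-P+S, LV-miR301a and LV-3+4 below therefore mean the library labelled so. Neither precursor had a count in the CRISPRd libraries or LV-vector-34, so these counts do not check the knockouts. At least 10 of 11 A549 markers had counts in every library, and CDKN2A, which A549 cells lack, had 0 to 6 counts. LV-vector-34 stood apart in RNAs that lack a poly(A) tail (41.8 CPM summed, against 3.79 to 8.19 in the other 6 libraries of its table), so the summed levels, the calls and the leading members of the comparisons that use it are also given against CRISPRd_Control. CPM, a library's counts scaled to a common size within a table, are the level used here. Levels are not compared between tables, which list different gene sets, or between genes, whose message lengths are annotated incompletely.

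The 3′ ends of the members are shown first, since they bear on which members poly(A) RNA can show. The search was preset to the histone form: a perfect 6-base stem starting with GG and a 4-base loop starting with TT. Other hairpins were not counted. Of 36 members with a 3′ UTR annotated in GENCODE 29, 30 (83.3%) held such a stem-loop. It began 23 to 68 bases after the stop codon. Among 19096 other coding genes with a 3′ UTR, 11 (0.0576%) held a stem-loop found by the same search in the first 300 bases. The stem-loops of the members had 4 distinct sequences. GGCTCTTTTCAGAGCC was the commonest, in 17 members of the H2A, H2B and H3 families, and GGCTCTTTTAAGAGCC was in 5 members of H2B and H3. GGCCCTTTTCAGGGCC and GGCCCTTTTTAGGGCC were in 5 and 3 members, all of H4. The stem-loops of 6 members that the results below turn on are printed from GENCODE 29 transcripts with the stem-loop in capitals.
H2AC6: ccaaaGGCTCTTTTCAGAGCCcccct
H2BC4: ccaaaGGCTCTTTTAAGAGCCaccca
H2BC5: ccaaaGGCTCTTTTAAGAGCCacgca
H2BC21: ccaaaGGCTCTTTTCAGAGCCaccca
H4C8: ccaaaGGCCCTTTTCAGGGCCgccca
H4C14: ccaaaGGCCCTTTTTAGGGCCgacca

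A poly(A) signal, either AATAAA or the common variant with one changed base, ATTAAA, on the message strand within 40 bases of an annotated transcript end, was found for 22 members, and 19 of these also held the stem-loop. Among the 19, H4C11 holds its match 16 bases after the stop codon, ahead of its stem-loop at 23 bases, and is still counted. Of other coding genes with a 3′ UTR, 82.5% held such a signal. The signals of 5 members are printed to the annotated transcript end with the signal in capitals, because each of these genes holds a stem-loop and, farther from the stop codon, a poly(A) signal. In H2AC6 the signal begins 1159 bases after the stop codon and the stem-loop 44 bases after it. In H2BC21 the signal lies 1778 bases and in H4C8 663 bases after the stop codon.
H2AC6: gtAATAAAaggtaatgc
H2BC4: aaATTAAAataactcctagtatctc
H2BC5: ttAATAAAatctgcggagaattgtaaa
H2BC21: ttAATAAAgttaccaattaatttaaa
H4C8: tgAATAAAatcaggtcactcttctgct

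To count as measured in a comparison, a member needed 20 or more counts summed over its 2 libraries, and 1 CPM or more in one of them. Only 24 of the 70 members were measured in at least 1 of the 9 treated against control comparisons, and 8 were measured in all 9. The other 46 had at most 20 counts in any library, and 6 of them (H1-1, H1-6, H2AC1, H2BC1, H4C6 and H4C7) had 0 counts in all libraries that list them. By family, the measured members were 1 of 6 H1 genes, 8 of 17 H2A, 7 of 18 H2B, 3 of 14 H3 and 5 of 15 H4. All members together took 0.00485% to 0.0285% of the counts of a library.

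Members with an annotated poly(A) signal were measured more often than the others. Of the 22 members with a signal, 15 (68.2%) were measured, with a median largest count of 49. Of the 14 members with a 3′ UTR but no such signal, 3 (21.4%) were measured, with a median of 5.5. Of the 34 members for which GENCODE 29 annotates no 3′ UTR, 6 (17.6%) were measured, with a median of 4. This last class holds H2BC12 and H1-2, which had up to 1826 and 914 counts. The annotation release behind the deposited counts is not named in the labels, and some members are near-identical copies, so these shares are a description.

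H2BC12, an H2B gene of the large cluster on chromosome 6, took the largest share of the members' reads in each of the 13 libraries, from 28.8% to 40.8%. This share is of reads and is not corrected for message length. The 5 members with the most reads together took 64.6% to 80%. The H2B family supplied 43.6% to 56.7% of the members' reads in each library.

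**Figure D1:**
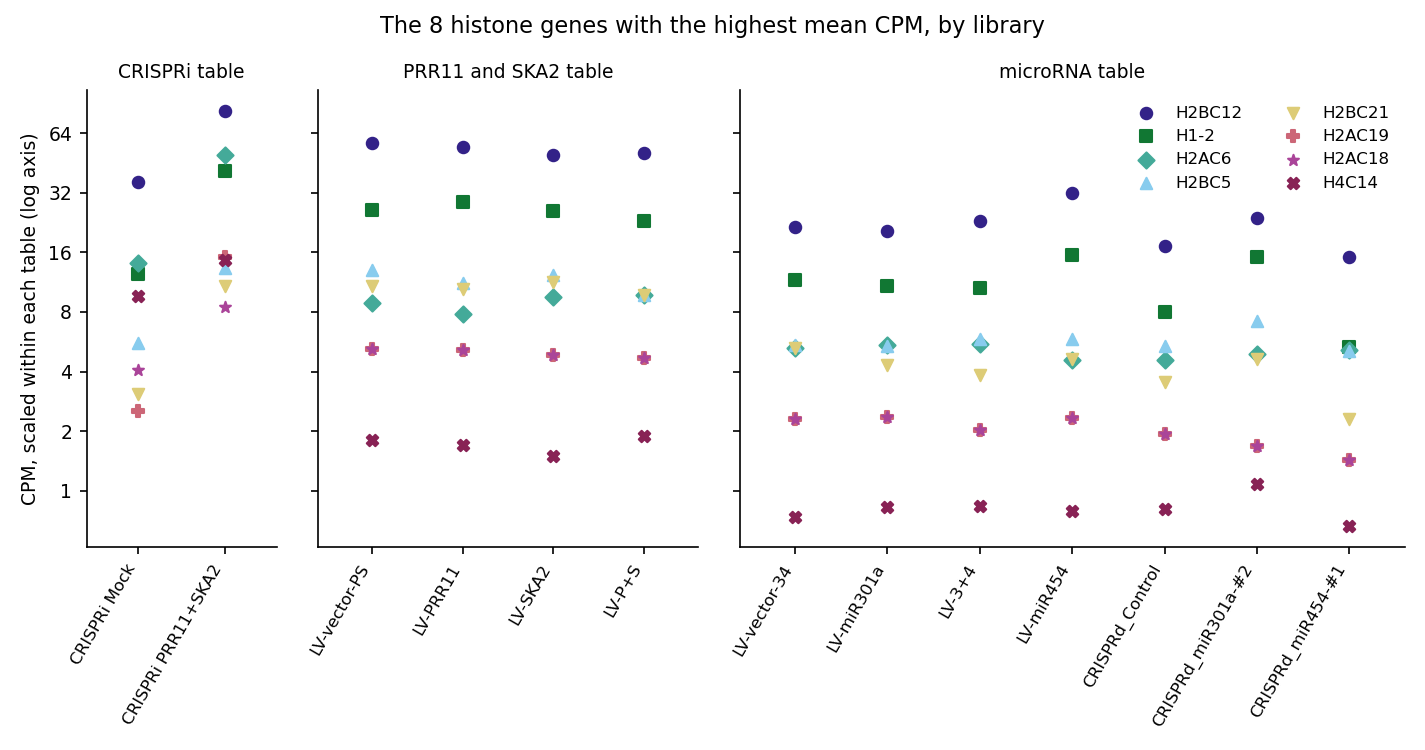
CPM of the 8 histone genes with the highest mean CPM in each of 13 libraries, on a log axis, with 1 panel per deposited table. Within the CRISPRi panel all 8 genes are higher in the treated library, while in the PRR11 and SKA2 panel the 4 libraries lie close together; H2AC18 and H2AC19 overlap in the other panels, where their listed counts are identical.

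In the CRISPRi pair, the histone genes as a group were higher in the library with the PRR11 and SKA2 promoter silenced. Their summed level was 109 CPM in CRISPRi_Mock sgRNA (2245 counts) and 280 CPM in the treated library (6184 counts), a ratio of 2.57 (95% counting interval 2.44 to 2.69). A gene passed the size rule when it differed at least 2-fold on the log2(CPM + 0.5) scale and the counting interval of its ratio excluded equality. Of 18 measured members among the 66 listed, 9 passed it as higher and 0 as lower. Over all 15003 genes measured, 9.43% passed as higher and 5.97% as lower, 15.4% in all. The median log2 difference was 1.08 for the 18 members and -0.04 for all genes. Of the 18, 16 reached 1 CPM in the control and 8 of these passed, so 2 members were measured through the treated library alone. With 1 library a group no p-value was computed, and the interval covers counting error only, not the spread between cultures.

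Every family was higher in sum. The linker histone H1 went from 264 to 920 counts, a ratio of 3.25 (2.83 to 3.74), and this was nearly all H1-2. H2A went from 523 to 1703 counts (ratio 3.03, 2.75 to 3.35) and H2B from 1035 to 2696 (2.43, 2.26 to 2.61). H4 went from 14.7 to 29.4 CPM (2.01, 1.75 to 2.31). H3 went from 122 to 217 counts (1.66, 1.32 to 2.09), and no H3 member passed the size rule. The intervals of H3 and H4 lie below those of H1 and H2A.

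H1-2, the only linker histone with more than a few reads (chr6:26055787-26056428, minus strand), had 257 counts in the control and 914 in the treated library. Its ratio was 3.31 (2.88 to 3.82). The other listed H1 genes had at most 7 counts in any library.

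Among H2A genes, which encode the histone that pairs with H2B on the nucleosome face, H2AC6 went from 292 to 1094 counts, a ratio of 3.49 (3.06 to 3.98). H2AC6 lies at chr6:26124145-26139116 on the plus strand. H2AC18 and H2AC19 are near-identical copies on chromosome 1 whose reads cannot be assigned with certainty. Their sum went from 136 to 524 counts (ratio 3.59, 2.97 to 4.37). Taken singly, H2AC19 went from 52 to 336 counts and passed the rule, and H2AC18 went from 84 to 188 counts and did not (log2 0.98). H2AC11 had 37 and 42 counts. H2AC20 was the only measured member with a lower value, 24 counts in the control and 10 in the treated library (log2 -0.81), and did not pass.

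Among H2B genes, H2BC12 (chr6:27146418-27146798, minus strand) went from 743 to 1826 counts, a ratio of 2.29 (2.1 to 2.5). H2BC4 had the largest ratio of the H2B genes, from 29 to 202 counts (6.49, 4.38 to 9.94). H2BC21, on chromosome 1, went from 63 to 239 counts (3.53, 2.67 to 4.74), and H2BC5 from 115 to 296 (2.40, 1.93 to 3.0). These 4 H2B genes passed the rule. H2BC11 (25 and 44 counts), H2BC15 (13 and 27) and H2BC18 (25 and 47) did not pass it.

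Among the core H3 and H4 genes, H4C8 went from 66 to 194 counts, a ratio of 2.74 (2.06 to 3.68). H4C14 and H4C15 are near-identical copies: H4C15 was listed at 0 counts in the control and 99 in the treated library, and H4C14 at 197 and 323. Their sum went from 197 to 422 counts (2.00, 1.68 to 2.38), so the call for H4C15 alone rests on how reads were divided between the copies. With the near-identical copies merged, 8 of 17 measured members passed, a setting added after the data were seen. H3C6 went from 45 to 106 counts (log2 0.98) and H3C10 from 35 to 51, and neither passed. H2AW, which the naming rule leaves out of this table although its older symbol HIST3H2A is a member elsewhere, had 99 and 138 counts.

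**Figure D2:**
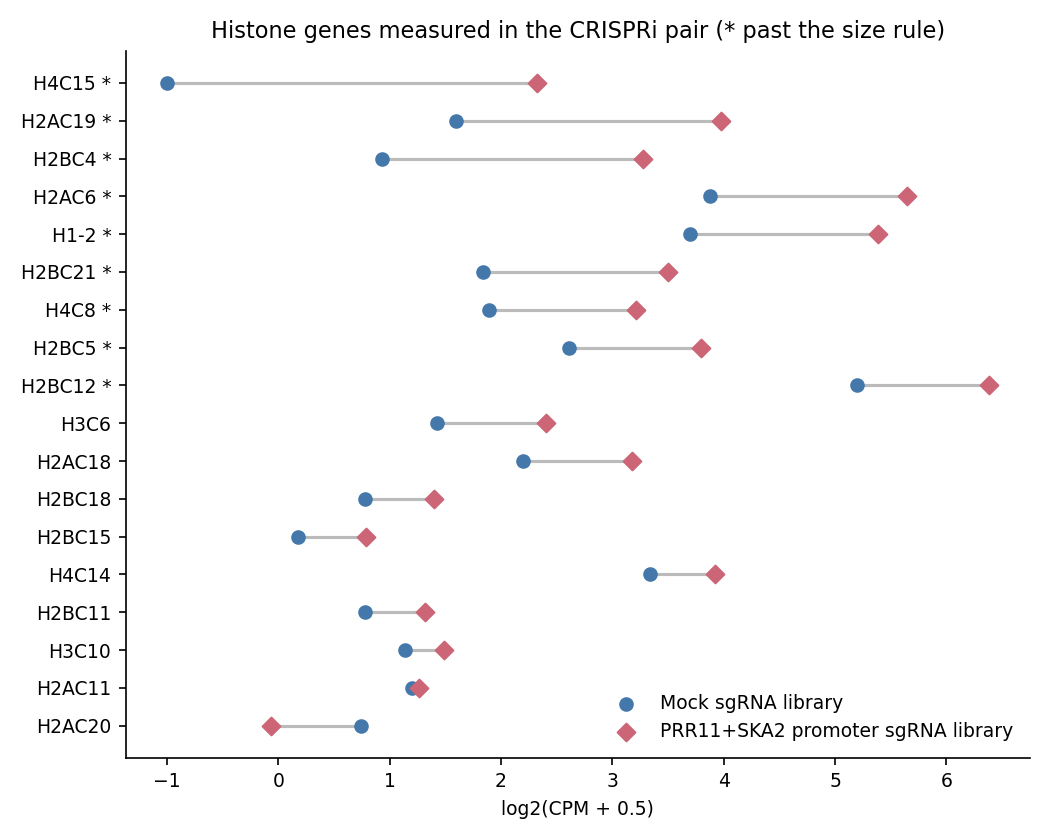
Level of each of the 18 histone genes measured in the CRISPRi pair, as log2(CPM + 0.5), in the control library (circles) and the treated library (diamonds). Asterisks mark the 9 genes past the size rule, all higher in the treated library; H2AC20 at the bottom is the only gene with a lower value there.

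Genes that make and use histone messages did not follow the members in this pair. Of 25 genes of histone message transcription and 3′ processing, 0 were higher and 2 lower, with a median log2 difference of -0.52. The 2 were NPAT, the coactivator of histone gene transcription (283 to 118 counts, log2 -1.29), and CASP8AP2, its partner at histone locus bodies (333 to 155 counts, log2 -1.15). SLBP, the stem-loop binding protein, had 1543 and 911 counts (log2 -0.85) and did not pass. Of 15 genes of poly(A) tail making, 0 passed in either direction, with a median of -0.39.

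Histone chaperone and deposition genes numbered 20, and 9 of them passed as lower and 0 as higher (median log2 -0.79). They included CHAF1A and CHAF1B, the large and middle subunits of the CAF-1 complex that places histones on new DNA, with log2 differences of -1.85 and -1.83. HJURP, the chaperone of the centromeric histone, and TONSL, a reader of new histone H4, were lower by log2 differences of -1.76 and -1.77. ASF1B and SSRP1 were at -1.51 and -1.47. In the S phase list, 17 of 20 passed as lower and 0 as higher (median log2 -1.80). The cyclin A2 gene CCNA2 went from 1737 to 496 counts, MCM2 of the replicative helicase from 2815 to 702, CDC45 from 807 to 165, and E2F2 from 362 to 38.

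Most replication-independent histone genes give poly(A)-tailed messages outside S phase too. Of 11 measured, 0 passed as higher and 2 as lower (median log2 -0.58). The 2 were CENPA, the centromeric H3 (867 to 252 counts, log2 -1.84), and H2AX (2929 to 1436 counts, log2 -1.12). H3-3A had 4057 and 4203 counts, H3-3B 10108 and 8883, and H2AZ1 7698 and 5361, none past the rule. The members and the replication-independent histones thus had medians of opposite sign in the same pair of libraries.

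**Figure D3:**
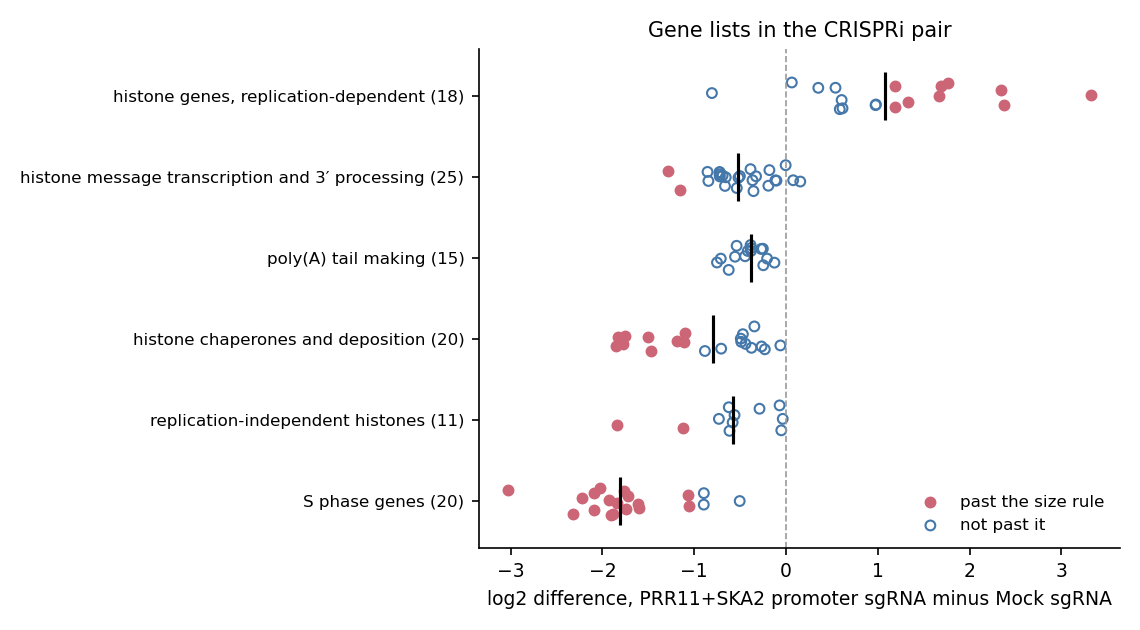
Log2 differences in the CRISPRi pair, treated minus control on the log2(CPM + 0.5) scale, for the 18 measured replication-dependent histone genes and for 5 related lists (number measured in brackets). Filled points passed the size rule, bars are medians, and the members (median 1.08) lie opposite to the S phase genes (median -1.80).

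Measures of RNA selection and cell identity moved with this pair as follows, and their part in the result was not tested. RNAs that lack a poly(A) tail summed to 17.0 CPM in the control and 21.6 CPM in the treated library. Of 3 measured, 1 passed as higher, RN7SK with 28 and 74 counts. Mitochondrial RNAs had 0 of 15 past the rule and a median of 0.08. Of 11 A549 markers, KRT19 was higher (418 to 2812 counts), and EPCAM (151 to 49) and CDH1 (1794 to 633) were lower. All 3 measured markers of other cells were higher, COL1A1 (187 to 571), LUM (17 to 79) and PDGFRA (2 to 31), with the list of 14 summing to 10.4 and 31.7 CPM. The T cell markers CD3E and CD3D, the B cell marker MS4A1 and the red cell marker HBB were at 0 in both libraries. In bulk RNA, fewer cells in a state and less RNA per cell cannot be told apart.

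The lentiviral PRR11 and SKA2 libraries share 1 control, LV-vector-PS, and showed no histone gene past the size rule. In LV-PRR11, 0 of 17 measured members passed against 0.299% of all genes, and the summed level was 150 CPM in the vector and 147 CPM in the treated library (ratio 0.977, 0.927 to 1.03). In LV-SKA2, 0 of 18 passed against 0.252%, and the summed ratio was 0.932 (0.883 to 0.983). In LV-P+S, 0 of 18 passed against 0.261%, and the summed ratio was 0.917 (0.869 to 0.967). The medians over measured members were -0.04, -0.06 and -0.04.

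Single members moved little in this set. H2BC12 had 1083, 1023, 933 and 969 counts in the order vector, LV-PRR11, LV-SKA2, LV-P+S. H1-2 had 492, 538, 485 and 440 counts in that order. H2AC6 had 168, 146, 178 and 186 counts, H2BC5 247, 210, 229 and 185, and H2BC21 203, 196, 211 and 185. H2AC20 had 26 counts in the vector and 15, 9 and 23 in the treated libraries. Its log2 difference of -0.94 in LV-SKA2 was the largest in size of any member here, and its counting interval for the ratio (0.144 to 0.768) excluded equality without the fold reaching the rule. H4C3, an H4 gene, had 35, 37, 24 and 31 counts.

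The lists of related genes gave 0 calls in these 3 comparisons. The median log2 differences of the S phase genes were -0.01, -0.03 and -0.07 for LV-PRR11, LV-SKA2 and LV-P+S. SLBP had 1340 counts in the vector and 1258, 1170 and 1255 in the treated libraries, and NPAT had 352, then 375, 318 and 326. H3-3A had 8605 counts in the vector and 8804, 8601 and 8518, H3-3B 5473 and then 5573, 5207 and 5521, and H2AZ1 3720 and then 3787, 3366 and 3568. None of the 15 RNAs without a poly(A) tail or the 15 mitochondrial RNAs was found by symbol in this table. Neither list could therefore be read for these libraries.

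Both microRNAs are encoded in an intron of SKA2 and share their seed. The mature sequences from RefSeq (GRCh38.p14) are printed with the seed, bases 2 to 8, in capitals. They lie at chr17:59151149-59151171 and chr17:59137787-59137809 on the minus strand.
hsa-miR-301a-3p: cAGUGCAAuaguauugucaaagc
hsa-miR-454-3p: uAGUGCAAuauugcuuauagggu
The complementary site TTGCACT occurred in an annotated 3′ UTR of 4 members, H2BC5, H2BC15, H3C6 and H4C5, and in 15.1% of other coding genes with a 3′ UTR. A match is a description of letters only. H2BC5 had 104 counts in LV-vector-34, 105 in LV-miR301a, 111 in LV-miR454 and 112 in LV-3+4. It had 106 in CRISPRd_Control, 134 in CRISPRd_miR301a-#2 and 93 in CRISPRd_miR454-#1. H3C6 had 2 to 14 counts in these 7 libraries.

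In the microRNA overexpression libraries, which share LV-vector-34 as control, no histone gene passed the size rule. In LV-miR301a, 0 of 9 measured members passed against 0.731% of all genes, and the summed ratio was 0.971 (0.898 to 1.05). In LV-3+4, 0 of 9 passed against 0.646%, and the summed ratio was 0.983 (0.909 to 1.06). In LV-miR454, 0 of 9 passed against 6.39%, while the sum went from 1289 to 1481 counts, a ratio of 1.16 (1.08 to 1.25). The medians were -0.01, -0.13 and 0.01.

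The higher sum in LV-miR454 came from a few members. H2BC12 had 409 counts in LV-vector-34 and 604 in LV-miR454 (ratio 1.49, 1.31 to 1.69), and 398 and 440 in LV-miR301a and LV-3+4. H1-2 had 222 and 295 (1.34, 1.12 to 1.60), and 210 and 202. Neither reached the 2-fold rule. H2AC6 had 101, 106, 87 and 105 counts in LV-vector-34, LV-miR301a, LV-miR454 and LV-3+4, and H2BC21 had 101, 84, 88 and 74. Without H2BC12 the summed ratio in LV-miR454 was 1.01. The H3 family sum was lower in this library, 43 and 24 counts (0.563, 0.327 to 0.949), while no H3 member was measured. S phase genes had a median of 0.32 in LV-miR454, with 1 of 20 higher (CCNE2, 112 to 256 counts), against -0.07 in LV-miR301a and 0.08 in LV-3+4. Between the 2 controls of this table the S phase median was 0.19 (CRISPRd_Control against LV-vector-34), with 19 of 20 above 0. Cell markers moved in these libraries too, and their part in the histone values was not tested. Of 11 A549 markers, 1 passed as higher (KRT19, 46 to 635 counts) and 1 as lower (CDH1, 1958 to 947) in LV-miR454, and 0 passed in LV-miR301a and LV-3+4. The 14 markers of other cells summed to 27.4 CPM in LV-vector-34, 66.5 in LV-miR301a, 76.1 in LV-miR454 and 35.5 in LV-3+4. COL1A1 was the only one measured, with 478, 1249, 1429 and 635 counts in that order, and CD3E, CD3D, MS4A1 and HBB were at 0 in all 4.

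Against CRISPRd_Control the summed ratios were 1.09 (1.01 to 1.18) for LV-miR301a, 1.31 (1.21 to 1.41) for LV-miR454 and 1.11 (1.02 to 1.2) for LV-3+4. For LV-miR454 the ratios against this control were 1.85 (1.61 to 2.11) for H2BC12, 1.96 (1.61 to 2.39) for H1-2 and 0.321 (0.194 to 0.512) for the H3 family, and the S phase median was 0.03. For LV-miR301a, H2BC12 and H1-2 stood above this control (1.18, 1.02 to 1.37, and 1.36, 1.1 to 1.68) and below LV-vector-34. Its H3 family ratio against this control was 0.844 (0.598 to 1.19). For LV-3+4 the ratios against this control were 1.33 (1.15 to 1.54) for H2BC12, 1.33 (1.07 to 1.64) for H1-2 and 0.528 (0.351 to 0.783) for the H3 family. The members past the rule were then H2AC13 as lower in each of the 3, and also H3C10 in LV-miR454, against 4.92%, 5.59% and 4.37% of all genes. H2AC13 had 24 counts in CRISPRd_Control, 14 in LV-vector-34 and 5, 5 and 0 in LV-miR301a, LV-miR454 and LV-3+4. H3C10 had 32 counts in CRISPRd_Control, 12 in LV-vector-34 and 15, 5 and 15 in the treated libraries. The high level of RNAs without a poly(A) tail in LV-vector-34 was carried by RN7SL1 and RN7SL2 (354 and 383 counts). The histone sum of LV-vector-34 was 67.4 CPM. It was 65.5 to 78.2 CPM in LV-miR301a, LV-miR454 and LV-3+4, and 50.9 to 77.0 CPM in the CRISPRd libraries. The part of the RN7SL1 and RN7SL2 difference in the histone values was not tested.

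The 2 control libraries of the microRNA table were also compared, as 1 pair of lines without either microRNA changed by label. They differ in the engineering system too, CRISPRd against a lentiviral vector. Of 11 measured members, 0 passed the rule between CRISPRd_Control and LV-vector-34, against 4.35% of all genes. The summed ratio was 0.889 (0.821 to 0.962). H1-2 had 157 counts in CRISPRd_Control and 222 in LV-vector-34 (ratio 0.685, 0.555 to 0.844), H2BC12 had 341 and 409, and H2BC21 70 and 101. The H3 family had 78 and 43 counts (1.76, 1.2 to 2.61). The summed ratio of 1.16 for LV-miR454 against LV-vector-34 is of the same order as this difference between controls, while against CRISPRd_Control it was 1.31. With 1 pair of controls the spread between lines is not measured.

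**Figure D4:**
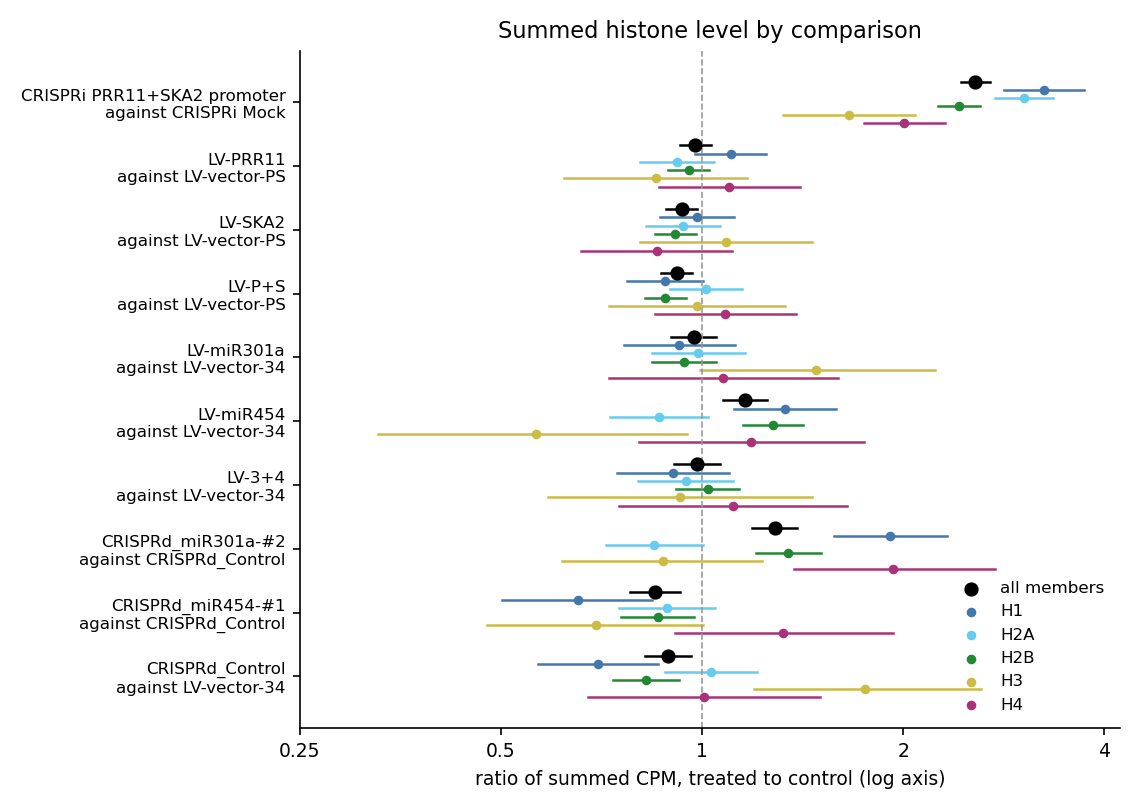
Ratio of the summed histone CPM, treated to control, on a log axis for each of the 9 comparisons and for the 2 controls of the microRNA table. Large black points are all members, small points are the 5 families, bars are 95% counting intervals, and the CRISPRi pair at the top (2.57) is the only one with every family above 1.

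The microRNA knockouts share CRISPRd_Control, and no histone gene passed the size rule in either. In CRISPRd_miR301a-#2, 0 of 14 measured members passed against 10.9% of all genes, with a median of 0.18. The sum went from 1183 counts in the control to 1428, a ratio of 1.28 (1.19 to 1.39). In CRISPRd_miR454-#1, 0 of 12 passed against 9.71%, with a median of -0.33. The sum was 928 counts, a ratio of 0.850 (0.779 to 0.927). The summed level was thus above the control in one knockout and below it in the other. Against LV-vector-34 the ratios were 1.14 (1.06 to 1.23) and 0.755 (0.693 to 0.822).

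H1-2 differed most in reads between the knockouts. It had 157 counts in CRISPRd_Control, 283 in CRISPRd_miR301a-#2 (ratio 1.92, 1.57 to 2.35) and 97 in CRISPRd_miR454-#1 (0.669, 0.514 to 0.867). H2BC12 had 341, 445 and 276 counts in the same order, and H2BC21 had 70, 86 and 42. H2AC6 had 90, 91 and 94 counts, and its counting intervals included equality in both. H4C12 had 9 to 13 counts in the LV libraries of the microRNA table. It had 13 in CRISPRd_Control, 33 in CRISPRd_miR301a-#2 (2.70, 1.38 to 5.59) and 25 in CRISPRd_miR454-#1 (2.08, 1.03 to 4.43). H2AC13 had 24, 7 and 14 counts. H4C12 and H2AC13 fell just short of the rule in CRISPRd_miR301a-#2, at log2 differences of 0.98 and -0.97. Against LV-vector-34, H4C12 passed as higher in CRISPRd_miR301a-#2 (8.84% of all genes passed), and H1-2 and H2BC21 as lower in CRISPRd_miR454-#1 (9.27%).

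In the knockouts, the lists of histone message processing, poly(A) tail making, chaperones, replication-independent histones and S phase genes had no member past the rule. S phase genes had medians of -0.36 in CRISPRd_miR301a-#2 and -0.44 in CRISPRd_miR454-#1, with 19 of 20 below 0 in each. The histone processing list had medians of -0.27 and -0.25, and the chaperone list -0.35 and -0.27. The replication-independent histones had medians of -0.11 and 0.02. SLBP had 1520 counts in the control and 1097 and 1226 in the knockouts, and NPAT had 355, 254 and 247. H3-3B had 6650, 5326 and 6852 counts, and H2AZ1 3346, 3444 and 3183. Of the 11 A549 markers, 3 passed as higher and 1 as lower in each knockout, with medians of 0.58 and 0.86 and sums of 21557 CPM in the control and 34912 and 38840 CPM in the knockouts. CDH1 was higher (1191 counts, then 3141 and 3623), KRT19 was lower (355, then 0 and 1), and PTPRC, a leukocyte marker, had 1 count in the control, 75 in CRISPRd_miR301a-#2 and 3 in CRISPRd_miR454-#1. The T cell markers CD3E and CD3D and the B cell marker MS4A1 were at 0 in all 3. The list of 14 markers of other cells summed to 15.8, 16.5 and 16.8 CPM. The part of these lines' other differences in the histone values was not tested.

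Many histone genes sit head to head with a partner and share a promoter. With starts at most 500 bases apart on opposite strands by RefSeq, 12 such pairs of members were found. In 3 pairs both genes were measured in at least 1 comparison, in 4 pairs 1 was, and in 5 neither. H2BC7 enters these 5 both with H3C4 and with H2AC7, each at 223 bases, so its promoter is counted more than once. The pairs differed in how their genes went in the CRISPRi pair. H2BC4 and H2AC6 were both higher (29 to 202 and 292 to 1094 counts). H2BC21 was higher (63 to 239 counts) while its partner H2AC20 had 24 and 10. H2BC11 (25 and 44) and H2AC11 (37 and 42) did not pass. The bases between the starts of the first of these pairs are printed from RefSeq (GRCh38.p14) on the H2AC6 strand, chr6:26123927-26124171, and those of the second on the H2BC21 strand, chr1:149886683-149886917. Capitals mark matches on either strand to 3 promoter elements known from histone genes: the CCAAT box (CCAAT), the box bound by the TATA-binding protein (TATAAA), and the octamer bound by Oct proteins (ATTTGCAT).
H2AC6: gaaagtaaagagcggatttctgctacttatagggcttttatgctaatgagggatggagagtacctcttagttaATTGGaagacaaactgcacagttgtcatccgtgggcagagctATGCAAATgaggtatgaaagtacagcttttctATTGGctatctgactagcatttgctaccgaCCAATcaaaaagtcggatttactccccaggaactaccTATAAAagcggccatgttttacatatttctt
H2BC21: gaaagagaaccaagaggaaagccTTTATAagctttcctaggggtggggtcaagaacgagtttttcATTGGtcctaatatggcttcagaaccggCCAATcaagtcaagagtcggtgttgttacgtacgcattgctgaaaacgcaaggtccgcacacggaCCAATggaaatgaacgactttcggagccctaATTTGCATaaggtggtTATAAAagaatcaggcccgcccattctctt

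Each of these 2 windows holds 3 CCAAT matches and 1 ATTTGCAT match, and they hold 1 and 2 TATAAA matches. Across the 65 members with a RefSeq promoter of 300 bases, CCAAT was found in 84.6% on either strand, against 34.5% of 35047 other promoters of that length. TATAAA was found in 66.2% against 11.4%. ATTTGCAT was found in 40% against 1.7%, in 11 of 16 H2A and 14 of 18 H2B promoters, and in 0 of 13 H4 promoters. CCAAT was present in all promoters matched for H1, H2A, H2B and H3 and in 3 of 13 for H4. Where members share 1 stretch of promoter, their values are not independent.

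Across the 7 libraries of the microRNA table, 5 of 10626 genes with at least 5 CPM in each had the pattern most like the summed histone level. They were CENPQ (Pearson r of log2 values 0.968), EMB (0.966), PIF1 (0.959), LIF (0.955) and PDE4D (0.953). The 7 points share a table and 2 controls, and with this many genes ranked over 7 libraries the values are a description.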

How the data were processed

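Poly(A) RNA of 13 A549 libraries, 1 per group, was sequenced. RSEM 1.3.3, Bowtie2 2.3.5.1 and GRCh38.p13 are named in the submitters' processing notes, and the authors deposited RSEM expected counts per gene in 3 tables. The annotation release and strand setting: not given in the sources used here. Expected counts were summed per symbol and rounded. Entries with no gene name, 0.355% and 0.431% of counts in the CRISPRi libraries, were left out. Numbered copies of a symbol in the microRNA table (1.96% to 2.1% of counts) were summed with it.

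Library sizes were scaled within a table by TMM (edgeR 4.0.16, R 4.3.3), and CPM and fold changes were computed in Python 3.11.15 with pandas 2.3.3, numpy 2.4.6 and scipy 1.17.1. Figures used matplotlib 3.10.9. With 1 library per group no p-value was computed. A gene was measured with at least 20 counts over both libraries and 1 CPM in either. It passed the size rule when log2 of the ratio of CPM + 0.5 was at least 1 in size and its 95% counting interval (exact, Clopper-Pearson) did not include equality. These intervals cover counting error only. Totals of 18672570 to 21717807 counts make 3 counts worth 0.136 to 0.165 CPM. The calculation was tested on simulated data. Alternatives were DESeq2 1.42.0 size factors, total counts, other filters, pseudocount and fold, the other control of the microRNA table, and sums without the member with most reads.

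The members, the related lists and the rules were chosen with earlier results of these data known. Named were the members with the highest levels or past the rule, up to 6 called genes per list, and the 5 genes most like the summed level. Pseudogenes were left out, and so were H2AW, H2BU1, H3-4 and H4-16 in the CRISPRi table, whose current names the rule does not match. HIST2H3PS2, named as a pseudogene but listed as coding in RefSeq, was left out too (17 to 23 counts in the PRR11 and SKA2 libraries). Levels per length were planned but not computed, because 34 members have no annotated 3′ UTR.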

Additional observations from a re-analysis of the deposited data

How the results depend on the processing

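With 1 library a group the spread between cultures is not measured, and low-count members limit what could pass. No paired analysis was possible because each group is 1 library. Of 962 values of single measured members under the alternatives, 18 newly passed the rule and 22 had the other sign, 18 of these among the 50 with the other control, and none of the 22 was past the rule. H4C15 lost its call in the CRISPRi pair where it was no longer measured (at 5 CPM, and at 1 CPM in the control) or was merged with H4C14. In the CRISPRi pair, 9 members passed with DESeq2 size factors, 11 with total counts, 9 of 51 with no filter, 8 of 10 at 5 CPM and 9 with a pseudocount of 1. Merging near-identical copies gave 8 of 17 and requiring 1 CPM in the control gave 8 of 16, both chosen after seeing the data.

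With a 1.5-fold rule the number of members past it was 14 for CRISPRi_PRR11+SKA2 promoter-sgRNA#1 (13 higher), 1 for LV-SKA2, 3 for CRISPRd_miR301a-#2, 1 for CRISPRd_miR454-#1 and 2 between the microRNA controls. With CRISPRd_Control as the control it was 1 for LV-miR301a, 2 for LV-miR454 and 1 for LV-3+4. With LV-vector-34 as the control it was 1 for CRISPRd_miR301a-#2 and 2 for CRISPRd_miR454-#1. It was 2 for LV-3+4 without a filter and 1 for CRISPRd_miR301a-#2 with total counts. The cause of these shifts was not tested beyond what each setting changes.

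Without H2BC12, the member with most reads, the summed ratio was 2.70 in the CRISPRi pair and 1.01 in LV-miR454. Leaving out the top member of a family turned the direction of 5 family sums. The H1 ratio without H1-2 was 0.798 in the CRISPRi pair, 0.757 in LV-miR454 and 1.45 between the controls. These H1 ratios rest on very few reads and give no direction. H1-2 held 914 of 920 H1 counts in the treated CRISPRi library and 257 of 264 in its control. It held 295 of 298 in LV-miR454, 222 of 226 in LV-vector-34 and 157 of 163 in CRISPRd_Control. The H2B ratio without H2BC12 was 1.00 in LV-SKA2 and 0.930 in LV-miR454.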
